A study of Mus musculus with 24 samples.

Results

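The genes described here mark opposite ends of the liver lobule. The pericentral genes were Glul, Oat, Lgr5, Rhbg and Axin2, and the periportal genes were Ctsc, Cdh1, Hal, Sds and Gls2, 5 of each. Their probe sets were those that the array's annotation assigns to one of these symbols alone, which gave 13 of the 45101 probe sets and 8 of the 18194 genes with such a probe set. The 5 pericentral genes had 8 probe sets (Glul, Lgr5 and Axin2 2 each), and the 3 periportal genes Ctsc, Cdh1 and Hal had 5 (Ctsc 3). Sds and Gls2 had no probe set under their symbol in the table used and were not analysed here. The 8 genes with a probe set all passed the filter on dim genes, which asked that 3 or more arrays hold the gene at or above their 40th percentile. Each gene was read from its brightest probe set, and the dimmer ones are given where they differ.

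Liver RNA from 24 male mice was measured on 24 arrays, 3 in each of 8 groups, from 4 genotypes of TRβ, a thyroid hormone receptor, each given the active hormone T3 or PBS alone. Wild type mice (WT), mice with a knockout of the receptor (KO) and mice whose receptor carries E125G and G126S (GS), changes in its DNA-binding domain, were on a C57BL/6J background. They were made hypothyroid from 8 to 9 weeks of age by 3 weeks of low iodine diet and of drinking water with 0.02% methimazole, 0.5% perchlorate and 0.3% saccharin. Mice whose receptor carries Y147F, a change of a tyrosine, were on C57BL/6JCrl, and were given, from 10 to 11 weeks of age, an iodine-deficient diet with 0.05% methimazole and 1% perchlorate for 3 weeks. All groups, controls included, were therefore hypothyroid, and livers were taken after 6 h, with T3 injected intraperitoneally (20 µg per 100 g of weight in WT, KO and GS, and 200 ng per g in Y147F). The 18 arrays of WT, KO and GS were submitted first and the 6 Y147F arrays later, with no WT mice of their own, so differences of Y147F from WT cannot be told apart from age, substrain, drug dose and submission. Arrays were treated as separate animals because their title numbers differ, although no label says so, and 3 arrays a group limit the precision of every value below. The comparisons ask how the genotype sets these genes in hypothyroid liver, and how T3 moves them with the receptor intact, absent, or changed.

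Blood enters the lobule at the portal vein and leaves at the central vein, and hepatocytes along this path express different enzymes. Wnt ligands from endothelial cells of the central vein, amplified by R-spondins that bind Lgr receptors, keep β-catenin active in the hepatocytes around it, where Glul and Axin2 are classical targets. Periportal hepatocytes carry much of the breakdown of amino acids, and their ammonia enters the urea cycle, while pericentral hepatocytes take up what escapes it as glutamine. RNA of a whole liver piece does not show where in the lobule a transcript lies, and fewer cells of a type cannot be told apart from less RNA per cell.

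Arrays of one group correlated at 0.993 to 0.996 over the 14161 genes that passed the filter on dim genes, each at its brightest probe set. The hepatocyte markers with a probe set, 6 of 8 listed, averaged 14.80 to 14.87 on the log2 scale in every array, and 5 cholangiocyte markers averaged 5.83 to 6.44. The deiodinase Dio1, a target of T3, was higher with T3 by 6.63 ± 0.28 in WT, by 7.52 ± 0.28 in Y147F, and by 1.82 ± 0.28 in KO and 2.52 ± 0.28 in GS. The probe set of Thrb, the gene of TRβ, lay at 6.82 to 7.25 in the 6 KO arrays and at 6.38 to 7.01 in the 6 WT arrays, so it did not show the knockout. The deleted part of the gene was not set against the probes, so this checks nothing.

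The levels of Ctsc and Oat in KO and GS differed from WT, and Hal fell with T3 in Y147F. Promoters are therefore shown of the 3 genes whose levels differed between genotypes without T3 and that the RefSeq table (GRCm38.p6) holds. Each is the 250 bases before the start listed there, read on the gene's strand, 5′ to 3′. They are Ctsc (chr7:88277835-88278084, plus strand), Oat (chr7:132576399-132576648, minus strand) and Hal (chr10:93488518-93488767, plus strand). Capitals mark the motif CTTTGA.
Ctsc: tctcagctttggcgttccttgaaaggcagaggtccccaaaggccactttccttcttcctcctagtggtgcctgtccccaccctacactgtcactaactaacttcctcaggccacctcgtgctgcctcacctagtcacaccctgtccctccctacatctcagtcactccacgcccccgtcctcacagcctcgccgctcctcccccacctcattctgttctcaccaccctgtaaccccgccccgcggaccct
Oat: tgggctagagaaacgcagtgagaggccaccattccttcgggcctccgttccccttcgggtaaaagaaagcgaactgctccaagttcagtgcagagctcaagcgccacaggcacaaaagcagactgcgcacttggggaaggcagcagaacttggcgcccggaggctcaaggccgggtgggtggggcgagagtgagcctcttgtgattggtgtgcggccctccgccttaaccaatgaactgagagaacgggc
Hal: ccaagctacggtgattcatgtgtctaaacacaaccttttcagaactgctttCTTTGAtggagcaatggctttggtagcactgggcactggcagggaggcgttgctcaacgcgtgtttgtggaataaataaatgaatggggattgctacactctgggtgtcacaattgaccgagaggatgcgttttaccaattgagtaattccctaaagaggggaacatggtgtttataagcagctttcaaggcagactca
Both strands were searched for CTTTGA and CTTTGT, letters bound by the TCF/LEF partners of β-catenin, for AGGTCA, the half-site of thyroid hormone receptors, and for its direct repeat with 4 bases between, which contains the half-site. Only Hal held one, CTTTGA at 199 to 194 bases before the start. Among 32851 RefSeq promoters of this length, 13.8% hold CTTTGA, 16.5% CTTTGT, 14% AGGTCA and 0.0152% the repeat. Of the 10 genes, 5 have a promoter in the table. Of the other 2, Glul holds AGGTCA at 57 to 52 bases before the start and Axin2 holds none of the motifs. These matches describe the letters of the window only.

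Without T3, the periportal genes Ctsc and Cdh1 were higher and the pericentral Oat was lower in KO than in WT, and Ctsc and Oat differed the same way in GS. Hal, a periportal gene, was lower in KO. The pericentral Glul, Lgr5, Rhbg and Axin2 were called in neither mutant. A gene was called where limma gave an adjusted p under 0.05, with Benjamini-Hochberg adjustment over all 14161 genes tested, and differences are log2 values with their standard error. In KO against WT, 2 of the 8 genes were called higher and 2 lower, where 6.87% of all genes tested were called, 3.76% higher and 3.11% lower. In GS against WT, 1 was higher and 1 lower, where 2.95% of all genes were called, 1.97% higher and 0.982% lower. The KO and GS comparisons use the same 3 WT PBS arrays, so they are not independent of each other. The median difference in KO was 1.29 for the 3 periportal genes, -0.062 for the 5 pericentral genes and 0.0021 for all genes, and in GS it was 1.03, 0.0075 and -0.0053. A median of 3 genes is the value of 1 of them, here Ctsc in KO and Cdh1, which was not called, in GS.

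**Figure D1:**
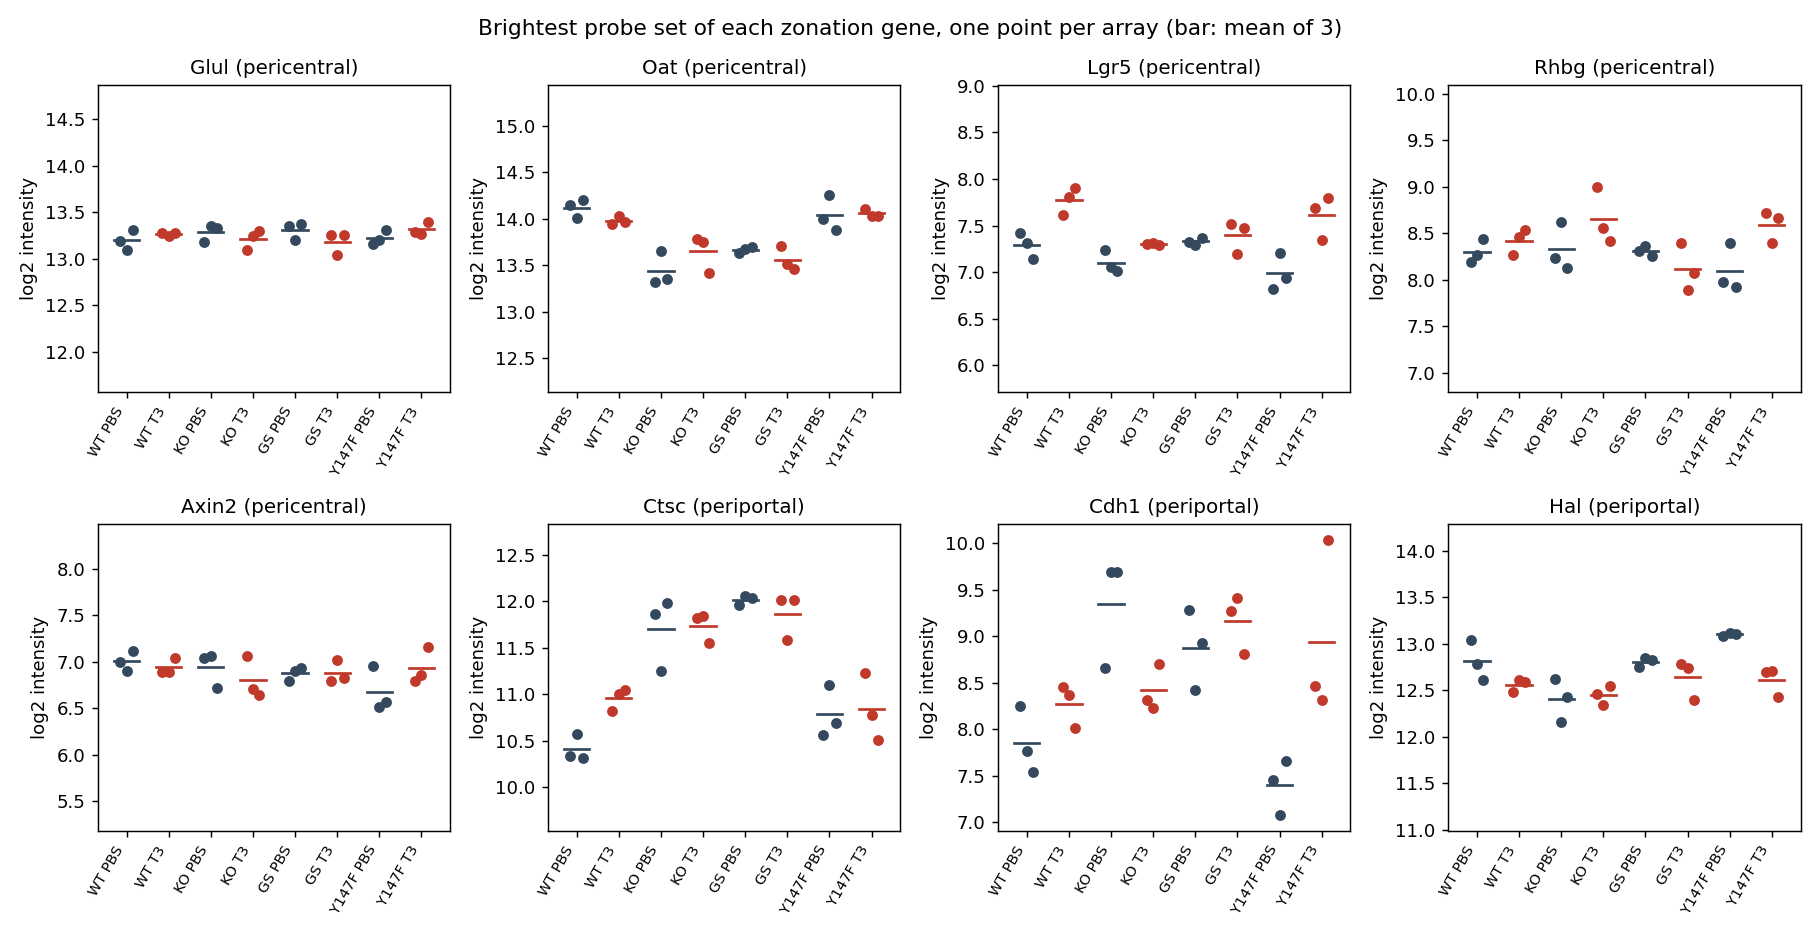
Log2 intensity of the brightest probe set of each gene (y axis, spanning the same number of log2 units in every panel) in each of the 8 groups (x axis), with 1 point per array, bars at the mean of 3, PBS in dark blue and T3 in red. For Ctsc the KO and GS arrays lie at 11.25 to 12.05 and the WT and Y147F arrays at 10.31 to 11.23, and for Glul all 24 arrays lie between 13.04 and 13.39.

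Ctsc encodes cathepsin C, a lysosomal dipeptidyl peptidase that activates serine proteases of immune cells. In the WT PBS arrays it lay at 10.34, 10.57 and 10.31. In KO it lay at 11.87, 11.25 and 11.98, and in GS at 11.96, 12.05 and 12.03. Every mutant array lay above every WT array, as was so for 23.6% of all genes, in either direction, in KO and 20.4% in GS. The difference from WT was 1.29 ± 0.19 in KO (2.45-fold, limma adjusted p = 2.59e-04) and 1.61 ± 0.19 in GS (3.05-fold, limma adjusted p = 2.94e-05). GS and KO differed by 0.32 ± 0.19, which did not pass the test (limma adjusted p = 0.701). A second, dimmer probe set of Ctsc was also called, at 0.87 ± 0.20 in KO (limma adjusted p = 0.0131) and 0.90 ± 0.20 in GS (limma adjusted p = 0.0198) in a fit of all probe sets, and the third was too dim to be tested. With T3 the brightest probe set was also higher in both mutants, given here as levels with no test. It lay at 11.55 to 11.83 in KO and 11.58 to 12.01 in GS against 10.82 to 11.05 in WT. At the second probe set the arrays of both mutants overlapped with those of WT with T3. Its means there were 6.60 in KO, 6.19 in GS and 6.33 in WT.

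In Y147F the levels of Ctsc at its brightest probe set were 10.56, 11.10 and 10.69 with PBS. In order of their means, the groups were WT with PBS (10.41 ± 0.14, SD, n = 3), Y147F with PBS (10.78 ± 0.28), Y147F with T3 (10.84 ± 0.36), WT with T3 (10.96 ± 0.12), KO with PBS (11.70 ± 0.40), KO with T3 (11.73 ± 0.16), GS with T3 (11.86 ± 0.25) and GS with PBS (12.01 ± 0.05). At this probe set all 12 KO and GS arrays lay above all 12 WT and Y147F arrays. The margin was 1 value, 11.25 in a KO array against 11.23 in a Y147F array. The share of all genes split this way was not counted. The means of neighbours in this order differed by less than the larger of their SDs, except WT with PBS from Y147F with PBS, and WT with T3 from KO with PBS. The second probe set was not split this way. There KO with PBS went down to 5.96 and GS with T3 to 5.88, while WT with T3 reached 6.64 and Y147F with T3 6.50.

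Since immune cells also make cathepsin C, levels of 11 Kupffer cell markers stand beside it. Their mean was 8.81 to 8.92 in the WT PBS arrays and 9.02 to 9.19 in KO. Of the 11, 1 was called in KO, the lectin Clec4f (0.59 ± 0.18, limma adjusted p = 0.0499), and 2 had p under 0.05 before adjustment. In GS the mean was 8.81 to 8.95, overlapping with WT. The 10 stellate cell markers also lay higher in KO (9.23 to 9.53) than in WT (8.94 to 9.22), with none called by limma (1 had p under 0.05 before adjustment), and not in GS (8.85 to 9.09). With PBS, 9 leukocyte markers averaged 6.07 to 6.38 in WT, 6.05 to 6.13 in KO and 6.09 to 6.11 in GS. Of the 7 tested none was called by limma in either mutant, with 0 in KO and 2 in GS at an unadjusted p under 0.05. The part of these cells in the Ctsc values was not tested.

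Oat encodes ornithine aminotransferase, which links ornithine to glutamate in the last rows of hepatocytes before the central vein. It lay at 14.15, 14.01 and 14.20 in WT with PBS. In KO it lay at 13.32, 13.65 and 13.35, and in GS at 13.63, 13.68 and 13.70. All mutant arrays lay below all WT arrays, where 23.6% of all genes did not overlap in KO and 20.4% in GS. Oat fell by 0.68 ± 0.11 on the log2 scale in KO (1.60-fold lower, limma adjusted p = 5.42e-04) and by 0.45 ± 0.11 in GS (1.37-fold lower, limma adjusted p = 0.022). With T3 the KO and GS arrays again lay below the WT arrays, with 13.42 to 13.79 in KO, 13.46 to 13.71 in GS and 13.95 to 14.04 in WT. In Y147F the 6 arrays lay at 13.88 to 14.26, above all 12 arrays of KO and GS. The shares of all genes split in these ways, with T3 and for Y147F, were not counted. The KO call held without any one array, whereas the GS call was lost without WT PBS replicate 1 (limma adjusted p = 0.0744) or replicate 3 (0.0885), or without GS replicate 1 (0.0839), replicate 2 (0.0627) or replicate 3 (0.058), at differences from -0.47 to -0.41.

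Cdh1 encodes E-cadherin, the adhesion protein of adherens junctions, which periportal hepatocytes and bile duct cells carry. It lay at 8.24, 7.76 and 7.54 in WT with PBS, at 8.66, 9.69 and 9.69 in KO, and at 9.28, 8.42 and 8.92 in GS. All arrays of both mutants lay above those of WT, where 23.6% of all genes did not overlap in KO and 20.4% in GS. In KO, 1 of the 3 arrays lay well below the other 2. The difference was 1.49 ± 0.35 in KO (2.82-fold, limma adjusted p = 0.0125), and in GS 1.03 ± 0.35 did not pass the test (limma adjusted p = 0.142). The KO call was lost without WT PBS replicate 3 (1.34, limma adjusted p = 0.0569), KO PBS replicate 2 (1.32, 0.0653) or KO PBS replicate 3 (1.32, 0.0706). With a term for title numbers above 100000 the difference was 0.99 and was not called (limma adjusted p = 0.0836), and with array weights GS was called (1.10, limma adjusted p = 0.0499). Title numbers above 100000 belong to all KO arrays and, among WT, to PBS replicate 1 alone, so that term overlaps with the KO comparison. Bile duct cells also carry E-cadherin, and the mean of the 5 cholangiocyte markers with a probe set, of 8 listed, was 6.04 to 6.22 in WT, 5.98 to 6.44 in KO and 6.00 to 6.19 in GS with PBS. Of the 4 that were tested none was called by limma in either mutant, with 0 at an unadjusted p under 0.05.

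Hal encodes histidine ammonia-lyase, the first enzyme of histidine breakdown. It lay at 13.04, 12.78 and 12.61 in WT with PBS and at 12.62, 12.16 and 12.42 in KO. The highest KO array overlapped with the lowest WT array. The difference was -0.41 ± 0.12 (1.33-fold lower, limma adjusted p = 0.0406), opposite in sign to those of the other 2 periportal genes. It was lost without WT PBS replicate 1 (-0.30, limma adjusted p = 0.192), WT PBS replicate 2 (-0.42, 0.0902), KO PBS replicate 2 (-0.29, 0.214) or KO PBS replicate 3 (-0.42, 0.0931). It was also lost in a fit of the compared arrays alone (0.183), of the first 18 arrays (0.0583), with array weights (0.0694) and with the term for title numbers (0.0661). In GS, Hal lay at 12.75, 12.84 and 12.82, a difference from WT of -0.0063 ± 0.12.

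The mutants were also compared with each other. Between GS and KO with PBS, none of the 8 genes was called by limma, where 0.0847% of all genes were, and 2 had p under 0.05 before adjustment. These were Hal, higher in GS by 0.40 ± 0.12 (limma adjusted p = 0.199), and Oat, at 0.23 ± 0.11 (limma adjusted p = 0.567). The GS arrays of Hal all lay above the KO arrays, as did those of Lgr5, where 14.4% of all genes did not overlap. At the dimmer probe set of Lgr5, GS differed from KO by -0.02 ± 0.11. It lay below the level of the filter on dim genes in all KO and GS arrays, so this value decides nothing.

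Between Y147F and WT with PBS none of the 8 was called by limma, where 0.0847% of all genes were, and 3 had p under 0.05 before adjustment. Lgr5 differed by -0.30 ± 0.12, Axin2 by -0.33 ± 0.13 and Hal by 0.29 ± 0.12, with limma adjusted p values of 0.261, 0.262 and 0.283. At the dimmer probe set of Lgr5 the difference was 0.32 ± 0.11 (limma adjusted p = 0.207 over all probe sets). That probe set passed the filter on dim genes through Y147F arrays alone, so nothing is read from this value. Hal lay at 13.08, 13.12 and 13.11 in Y147F, above all 3 WT arrays, where 17.7% of all genes did not overlap. Oat differed by -0.076 ± 0.11, Ctsc by 0.37 ± 0.19 and Cdh1 by -0.45 ± 0.35.

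**Figure D2:**
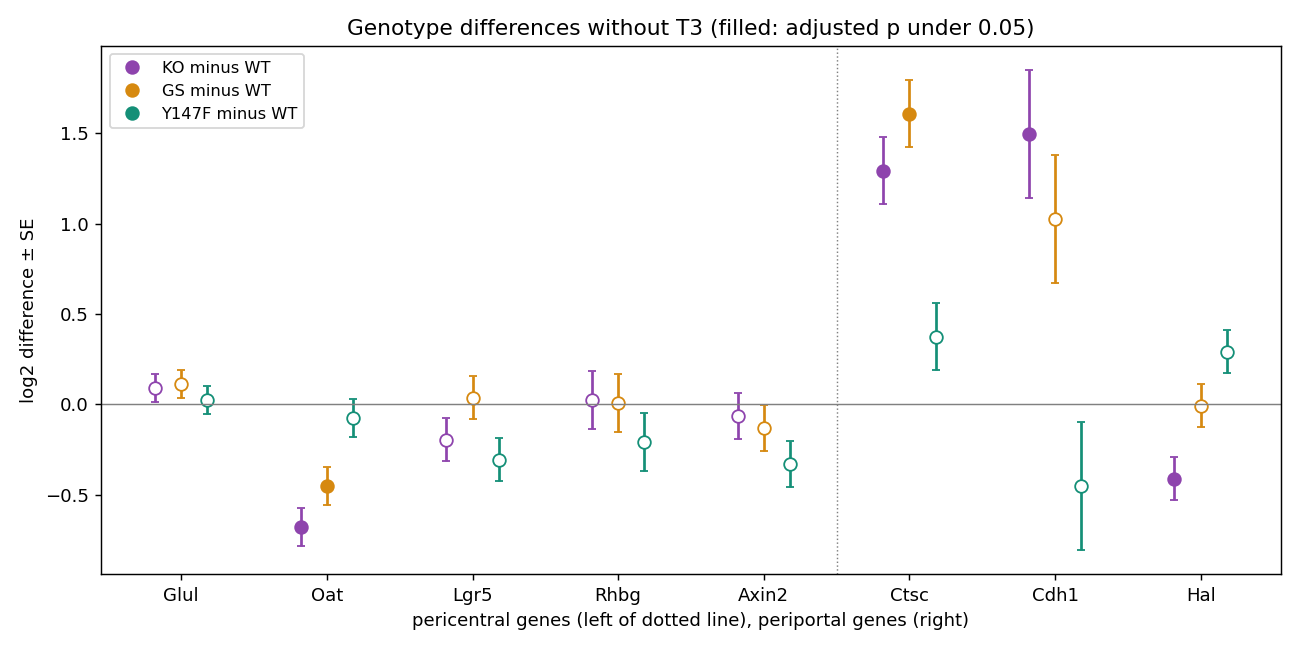
Log2 difference from WT without T3 (y axis, bars ± SE) of the 8 genes (x axis) in KO, GS and Y147F, with filled points at a limma adjusted p under 0.05. Filled points are Ctsc at 1.29 and 1.61, Oat at -0.68 and -0.45, and in KO alone Cdh1 at 1.49 and Hal at -0.41.

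T3 raised Lgr5, at its brightest probe set, in WT liver and was followed by no called change of any of the 8 genes in KO or GS. In WT, 1 of the 8 genes was called higher and none lower, where 10.6% of all genes were called, 5.72% higher and 4.89% lower. In KO none was called by limma, where 0.177% of all genes were, and 1 had p under 0.05 before adjustment. In GS none was called by limma either, where 0.148% of all genes were, and 0 had p under 0.05 before adjustment. With 8 genes, the counts called in WT, KO and GS lie near these shares. The median T3 response in WT was 0.070 for the pericentral genes, 0.43 for the periportal genes and -0.033 for all genes. The periportal median is the value of Cdh1, which was not called.

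Lgr5 encodes a receptor for R-spondins and is itself a target of Wnt signalling in pericentral hepatocytes. In WT it lay at 7.42, 7.32 and 7.14 with PBS and at 7.61, 7.80 and 7.90 with T3. All T3 arrays lay above all PBS arrays, where 29.5% of all genes did not overlap. The rise was 0.48 ± 0.12 (1.40-fold, limma adjusted p = 0.00918). It was lost without WT PBS replicate 3 (0.41, limma adjusted p = 0.0547) or WT T3 replicate 3 (0.42, 0.057). The second, dimmer probe set of Lgr5 changed by -0.05 ± 0.11. It lay at 4.96 to 5.32 in the WT arrays, in each of them below the level set by the filter on dim genes. It therefore cannot decide whether Lgr5 rose. With the mean of both probe sets, which takes in the dim one, the change was 0.21 (limma adjusted p = 0.118).

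In KO, Lgr5 lay at 7.23, 7.05 and 7.01 with PBS and at 7.30, 7.31 and 7.29 with T3. These groups did not overlap either, where 15.2% of all genes did not, and the change of 0.20 ± 0.12 did not pass the test (limma adjusted p = 0.592). In GS it lay at 7.33, 7.29 and 7.37 with PBS and at 7.52, 7.19 and 7.47 with T3, a change of 0.065 ± 0.12 with overlapping arrays. The response differed from that of WT by -0.28 ± 0.17 in KO and by -0.42 ± 0.17 in GS, and neither difference passed the test (limma adjusted p = 0.549 and 0.251). At the dimmer probe set these differences were 0.08 ± 0.15 in KO and 0.09 ± 0.15 in GS. That probe set lay below the level of the filter on dim genes in all WT, KO and GS arrays, so nothing is read from these values. Sinusoidal endothelial cells make Wnt ligands, and the mean of 10 of their markers was 9.25 to 9.31 in WT with PBS and 8.99 to 9.08 with T3. The mean over arrays was also lower with T3 in KO (8.96 against 9.17), GS (9.06 against 9.25) and Y147F (9.20 against 9.37). No marker of this list was called by limma in WT (5 of 10 had p under 0.05 before adjustment), and their part in the Lgr5 values was not tested.

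The other genes had WT responses that did not pass the test. Ctsc lay at 10.82, 11.00 and 11.05 with T3, above all 3 PBS arrays, with a difference of 0.55 ± 0.19 (limma adjusted p = 0.0646). Its second probe set was called, from 5.47, 5.42 and 5.45 with PBS to 6.64, 6.07 and 6.28 with T3 (0.88 ± 0.20, limma adjusted p = 0.0066 over all probe sets). The same contrast for the brightest probe set was called in a fit of the WT arrays alone (limma adjusted p = 0.0115), of the first 18 arrays (0.0343) and with array weights (0.036). The mean of the Ctsc probe sets was also called (0.65, limma adjusted p = 0.013). Hal lay at 12.47, 12.61 and 12.58 with T3, below all PBS arrays by a small margin, at -0.26 ± 0.12 (limma adjusted p = 0.198). Of all genes, 29.5% did not overlap in this comparison. Cdh1 lay at 8.45, 8.37 and 8.01 with T3, overlapping with PBS, at 0.43 ± 0.35 (limma adjusted p = 0.526).

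In KO, Ctsc changed by 0.035 ± 0.19 and in GS by -0.15 ± 0.19 with T3. Cdh1 in KO lay at 8.31, 8.23 and 8.70 with T3, below 2 of the 3 PBS arrays, at -0.93 ± 0.35 (limma adjusted p = 0.353). In GS it lay at 9.27, 9.41 and 8.80, at 0.29 ± 0.35.

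The differences of the T3 response from WT were tested directly. None of the 8 genes was called by limma for KO, where 3.09% of all genes were, or for GS, where 2.92% were, and 2 had p under 0.05 before adjustment in each. For KO these were Cdh1, with a response lower by 1.35 ± 0.50 (-1.35, limma adjusted p = 0.2), and Oat, with 0.35 ± 0.15 (limma adjusted p = 0.317). For GS they were Ctsc, with -0.70 ± 0.26 (limma adjusted p = 0.213), and Lgr5. In a fit of the compared arrays alone, the Ctsc difference for GS was called (limma adjusted p = 0.0417), and with a term for title numbers above 100000 the Cdh1 difference for KO was called (-1.60, limma adjusted p = 0.0335).

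In Y147F, T3 raised Lgr5, Rhbg and Cdh1 and lowered Hal. These were 3 genes called higher and 1 lower of 8, where 11.6% of all genes were called, 5.52% higher and 6.09% lower. Lgr5 lay at 6.82, 7.21 and 6.94 with PBS and at 7.69, 7.34 and 7.80 with T3. The groups did not overlap, where 26% of all genes did not. The rise was 0.62 ± 0.12 (1.54-fold, limma adjusted p = 0.00112), called in all 6 fits without one array. The dimmer probe set, which passed the filter through Y147F arrays alone, changed by -0.23 ± 0.11. With the mean of both the change was 0.20 (limma adjusted p = 0.142).

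Cdh1 lay at 7.45, 7.08 and 7.66 with PBS and at 8.47, 8.31 and 10.04 with T3. All T3 arrays lay above the PBS arrays, and replicate 3 stood far above the other 2. The rise was 1.54 ± 0.35 (2.90-fold, limma adjusted p = 0.0062). Without that array it was 0.99 (limma adjusted p = 0.0341), and with only the 6 Y147F arrays in the fit it was not called (limma adjusted p = 0.0621). Cholangiocyte markers averaged 6.05 to 6.20 with PBS and 5.96 to 6.23 with T3, with none of 4 called by limma (0 had p under 0.05 before adjustment).

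Hal lay at 13.08, 13.12 and 13.11 with PBS and at 12.69, 12.71 and 12.42 with T3, with no overlap. It fell by 0.49 ± 0.12 on the log2 scale (1.41-fold lower, limma adjusted p = 0.00814) and was called in all 6 fits without one array. Rhbg, an ammonium transporter of the Rh family in pericentral hepatocytes, lay at 7.98, 8.40 and 7.92 with PBS and at 8.72, 8.40 and 8.66 with T3. The lowest T3 array and the highest PBS array had nearly the same value. Its rise of 0.50 ± 0.16 (1.41-fold, limma adjusted p = 0.0473) was lost without PBS replicate 1 (0.44, limma adjusted p = 0.143) or replicate 3 (0.41, 0.172), without T3 replicate 1 (0.43, 0.174) or replicate 3 (0.46, 0.112), and in a fit of the 6 Y147F arrays alone (0.0869). It was also lost with no filter on dim genes (0.056), with every probe set fitted on its own (0.05001), with array weights (0.35, 0.121) and with the term for title numbers (0.55, 0.0663). Ctsc changed by 0.054 ± 0.19 at its brightest probe set, where the second one was called higher (0.73 ± 0.20, limma adjusted p = 0.0231 over all probe sets), so its probe sets disagree here.

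The response in Y147F was compared with that in WT gene by gene. None of the 8 was called by limma, where 0% of all genes were, and 1 had p under 0.05 before adjustment. This was Cdh1, with 1.11 ± 0.50 (limma adjusted p = 0.897). The differences of Lgr5 (0.14 ± 0.17), Hal (-0.24 ± 0.17) and Rhbg (0.38 ± 0.23) did not pass the test. A called rise of Cdh1 or Rhbg in Y147F and none in WT is therefore no tested difference between these genotypes.

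**Figure D3:**
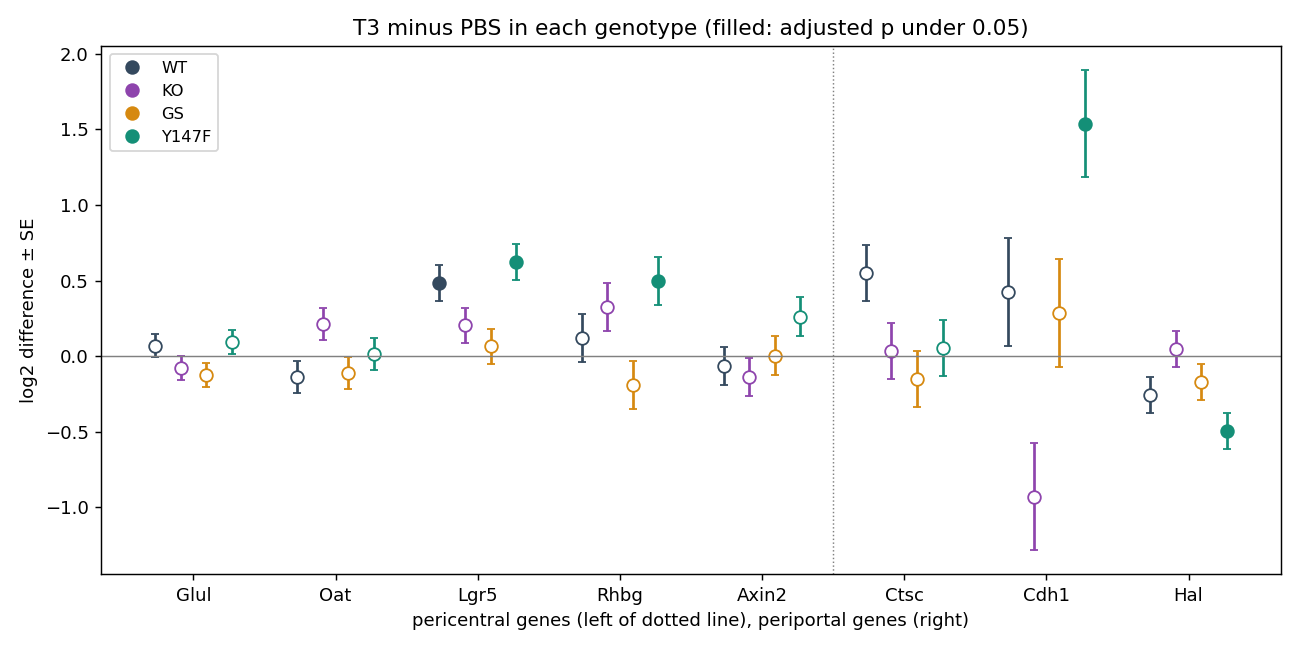
Log2 difference of T3 from PBS (y axis, bars ± SE) of the 8 genes (x axis) in each genotype, with filled points at a limma adjusted p under 0.05. Filled points are Lgr5 at 0.48 in WT and 0.62 in Y147F, and in Y147F also Rhbg at 0.50, Cdh1 at 1.54 and Hal at -0.49.

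Glul, glutamine synthetase, which fixes ammonia in the innermost ring of hepatocytes, was called in no comparison. Its lowest array was 13.04 and its highest 13.39, and the 8 group means ran from 13.18 in GS with T3 to 13.31 in Y147F with T3, a range of 0.13. The SE of each of its T3 responses and genotype differences was 0.078. Its second probe set was called in no comparison either, with group means from 12.15 to 12.48. Axin2, which encodes a scaffold that marks β-catenin for destruction and is induced by Wnt signalling, was likewise not called. Its group means ran from 6.68 in Y147F with PBS to 7.005 in WT with PBS, with single arrays from 6.51 to 7.16. Rhbg ran from 8.10 in Y147F with PBS to 8.66 in KO with T3, and one KO array with T3 reached 9.00.

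Wider lists of zonation genes, with the 10 genes left out, were drawn up to set these values in context. Of 22 tested genes of a pericentral list, 2 were higher and 3 lower in KO than in WT without T3, and 2 and 2 in GS. Of 22 tested genes of a periportal list, 6 were higher and 2 lower in KO, and 4 and 1 in GS. The background is as given above, 6.87% in KO and 2.95% in GS. The lists' median differences lay near 0 throughout, at -0.028 (pericentral) and 0.086 (periportal) in KO and at 0.0030 and 0.049 in GS, beside 0.0021 and -0.0053 for all genes. Without one array the count in KO ran from 3 to 5 for the pericentral list and from 5 to 8 for the periportal list. In GS the periportal count was 3 without GS PBS replicate 1 or 2 and 4 without any of the other arrays compared, against 5 with all.

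Each list thus held genes that moved either way. On the periportal list, the apolipoprotein Apoa4 was higher by 2.11 ± 0.37 in KO and 1.51 ± 0.37 in GS (limma adjusted p = 0.00129 and 0.0272), and the cytochrome Cyp2f2 by 0.71 ± 0.12 and 0.73 ± 0.12. The phospholyase Etnppl was lower by 0.72 ± 0.08 in KO (-0.72, limma adjusted p = 3.68e-05) and 0.60 ± 0.08 in GS (-0.60), and the aldehyde dehydrogenase Aldh1b1 was lower in KO (-0.96 ± 0.15). The sulfotransferase Sult5a1 was higher in GS (1.01 ± 0.19). On the pericentral list, the sterol hydroxylase Cyp27a1 was higher by 0.65 ± 0.08 in both mutants, as was the dicarboxylate transporter Slc13a3 (1.07 ± 0.19 and 1.08 ± 0.19). The phosphatase Lhpp was lower (-1.003 ± 0.09 and -0.77 ± 0.09), as was the nuclear receptor Nr1i3 (-0.69 ± 0.15 and -0.60 ± 0.15).

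**Figure D4:**
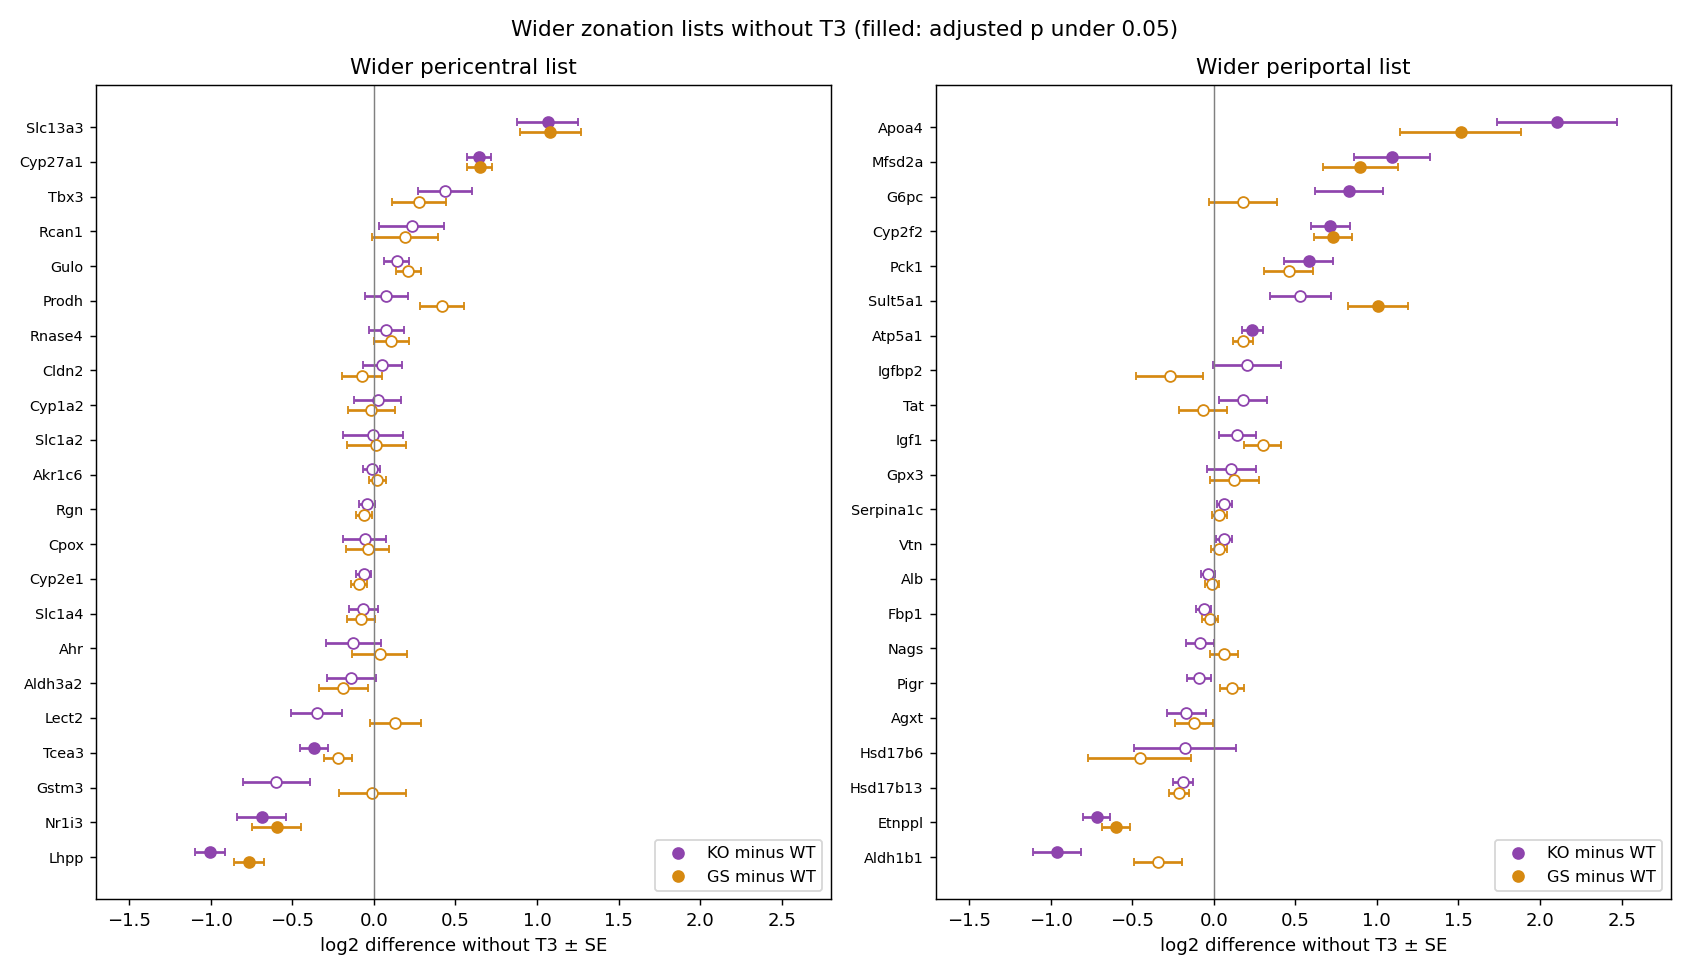
Log2 difference from WT without T3 (x axis, bars ± SE) of the tested genes of the wider pericentral list (left) and periportal list (right) in KO and GS, with filled points at a limma adjusted p under 0.05. Filled points lie on both sides of 0 in each list, from Lhpp at -1.003 to Slc13a3 at 1.08 and from Aldh1b1 at -0.96 to Apoa4 at 2.11.

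With T3, 3 genes of the pericentral list rose and 4 fell in WT, and also 3 and 4 in Y147F, while 2 of the periportal list rose and 5 fell in each. Of all genes tested, 5.72% were higher and 4.89% lower in WT, and 5.52% and 6.09% in Y147F. Of both lists, none was called in KO or GS by limma, with 4 and 2 pericentral and 2 and 6 periportal genes at an unadjusted p under 0.05. Without one array the periportal count in WT was 3 to 4, against 7 with all arrays. The proline dehydrogenase Prodh rose in WT (1.54 ± 0.13) and Y147F (1.25 ± 0.13), as did Cyp27a1 (0.55 ± 0.08 and 0.47 ± 0.08). The claudin Cldn2 (-0.78 ± 0.12 and -0.72 ± 0.12) and Nr1i3 (-0.82 ± 0.15 and -0.83 ± 0.15) fell. On the periportal list Etnppl (-0.69 ± 0.08 and -0.42 ± 0.08), Nags, which makes the activator of the urea cycle (-0.65 ± 0.08 and -0.44 ± 0.08), and the growth factor Igf1 (-0.61 ± 0.11 and -0.65 ± 0.11) fell. The responses of Prodh differed from WT by -1.08 ± 0.19 in KO and -1.58 ± 0.19 in GS, and those of Cyp27a1 by -0.60 ± 0.11 and -0.55 ± 0.11, all called by limma.

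Around Lgr5 and Axin2, 38 tested genes of the Wnt pathway were read. With T3, 3 rose and 4 fell in WT and 4 and 3 in Y147F, where 10.6% and 11.6% of all genes were called. Lgr4, the R-spondin receptor related to Lgr5, rose by 0.82 ± 0.07 in WT (limma adjusted p = 1.65e-08) and by 0.73 ± 0.07 in Y147F. Its response was lower by 0.79 ± 0.09 in KO (-0.79) and 0.87 ± 0.09 in GS (-0.87), both called. The Wnt receptor Fzd8 rose by 1.18 ± 0.14 and 1.35 ± 0.14, and β-catenin itself, Ctnnb1, by 0.26 ± 0.05 and 0.29 ± 0.05. The Dishevelled gene Dvl1 (-0.65 ± 0.13) and the transcription factor Tcf7l1 (-0.31 ± 0.06) fell in WT. Without T3, 2 genes of this list were called in KO and 1 in GS, all higher. They were Lgr4 (0.23 ± 0.07 in KO and 0.30 ± 0.07 in GS) and Ctnnb1 (0.20 ± 0.05 in KO). These counts lie near or below the shares of all genes, 6.87% in KO and 2.95% in GS. The count in KO was 0 without WT PBS replicate 3, KO PBS replicate 2 or KO PBS replicate 3, and 1 without WT PBS replicate 2 or KO PBS replicate 1, and that in GS was 0 without WT PBS replicate 2.

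Around Glul, Oat and Hal, 17 tested genes of the urea cycle and ammonia handling and 28 of amino acid breakdown were read. In KO without T3, 0 of the first were higher and 1 lower, the glutamine transporter Slc38a3 (-0.27 ± 0.06), where 6.87% of all genes were called. The count was 0 without WT PBS replicate 3 or KO PBS replicate 3. In GS none was called by limma, with 2 at an unadjusted p under 0.05. Of the amino acid genes 1 was higher and 3 lower in KO and 2 and 2 in GS, where 2.95% of all genes were called in GS. The GS count was 1 without WT PBS replicate 1 or GS PBS replicate 2, 2 or 3 without any of the other arrays compared, and 1 in a fit of the compared arrays alone, as was the KO count in such a fit, which was 8 with a variance trend. Cth, which makes cysteine from cystathionine, was lower in both (-0.53 ± 0.07 and -0.46 ± 0.07), as was Bckdhb of branched-chain breakdown (-0.32 ± 0.06 and -0.23 ± 0.06). With T3 in WT, where 10.6% of all genes were called, 2 urea cycle and ammonia genes rose, the amino acid transporter Slc38a2 (1.06 ± 0.16) and the carbonic anhydrase Car5a (0.42 ± 0.08). Another 2 fell, Nags (-0.65 ± 0.08) and the mitochondrial aspartate and glutamate carrier Slc25a13 (-0.26 ± 0.06). Of the amino acid genes 2 rose, Prodh and the serine hydroxymethyltransferase Shmt1 (0.80 ± 0.13), and 1 fell, Cth (-0.41 ± 0.07). In Y147F with T3, 2 of the 28 amino acid genes rose and 1 fell, where 11.6% of all genes were called. The gene that fell was Amdhd1, an enzyme of the same histidine pathway as Hal (-0.23 ± 0.07, limma adjusted p = 0.0401). The count ran from 2 to 4 over the other settings and from 2 to 3 with 1 array left out.

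Around Ctsc and Cdh1, 13 cathepsins and lysosomal proteases and 14 junction genes were read. In KO without T3, the proteases Lgmn (0.69 ± 0.16) and Ctsh (0.22 ± 0.06) were higher, 2 of 13, with none lower, where 6.87% of all genes were called. The count was 0 without WT PBS replicate 3 and with the term for title numbers, and 1 without WT PBS replicate 2, KO PBS replicate 1 or KO PBS replicate 3. In GS no protease of the list was called by limma, with 4 at an unadjusted p under 0.05. Of the junction genes 1 was called in KO, Ctnnb1 (not without WT PBS replicate 2 or 3 or KO PBS replicate 2 or 3), and none by limma in GS, with 2 at an unadjusted p under 0.05. With T3, 1 junction gene rose and 2 fell in WT, and 1 and 5 in Y147F, where 10.6% and 11.6% of all genes were called. Ctnnb1 rose (0.26 ± 0.05 in WT and 0.29 ± 0.05 in Y147F), and Cldn2 (-0.78 ± 0.12 and -0.72 ± 0.12) and Cgn (-0.42 ± 0.10 and -0.51 ± 0.10) fell. Cdh2, N-cadherin, fell in Y147F (-0.31 ± 0.09). Without one array the Y147F count was 3 to 5, against 6 with all.

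The genes with the most similar pattern over the 24 arrays were found by Pearson's r among all 14161 tested genes. The arrays share their genotype and treatment groups, so r describes the pattern and has no test. Oat was most like Agxt2 (0.924), Hamp2 (0.921) and Lhpp (0.910), and Ctsc was most like C8g (0.912), Smagp (0.897) and Ndufa1 (0.880). Lgr5 followed Alkbh7 (0.863), Il15 (0.855) and AI987944 (0.842), and Hal followed St6gal1 (0.842), Hbs1l (0.822) and Tnfrsf1a (0.821). Cdh1 was nearest to Abca2 (0.807), Cyp27a1 (0.783) and Tle4 (0.774), Rhbg to Cdkl2 (0.791), Phkb (0.767) and Orm3 (0.706), Axin2 to Dhx37 (0.732), Kcnj10 (0.705) and Slurp1 (0.704), and Glul to Ube2h (0.813), Opa3 (0.741) and Ppp4r1 (0.739). For none of the 8 was another of the 8 among the 3 nearest genes.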

How the data were processed

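Total RNA of liver, 200 ng per array, was hybridised to 24 Affymetrix arrays. The authors summarised the arrays with RMA, per the submitters' processing notes, and the deposited values are on the log2 scale, as their range also shows. The RMA version used is not stated there. The deposited Y147F values, in 6 columns, are log2 values without their decimal mark. The mark was restored so that each value lay from 3 to 16, and 781 of 270606 cells (0.289%) that a spreadsheet could have turned into a date were set missing, none of them in a gene of the 10. Of 810840 intact values damaged and restored in the same way, 0 came back wrong, and a further 978 were set missing. This checks the steps and not the assumption.

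GEO's platform annotation gave 34958 probe sets 1 gene symbol, 932 several and 9211 none. A gene was represented by its single-symbol probe set with the highest mean, and 14161 of 18194 genes passed the filter. In R 4.3.3, limma 3.58.1 fitted 8 group means to the 24 arrays (16 residual and 4.28 prior degrees of freedom), two-sided, with no covariate. Steps were tested on simulated data. With 3 against 3 arrays a permutation test reaches 0.1 at best, and limma was used instead. Replicates are numbered in accession order. The genes, the 7 wider lists and the tests were chosen with earlier results of these data known. Named were all 10 genes, up to 4 called genes of each list per comparison with the smallest p, the 3 genes most like each member, Dio1 and Thrb. Other settings tried were quantile normalisation, a 60th percentile filter or none, averaging the probe sets of a gene, fitting every probe set, a variance trend with robust moderation, only the arrays compared, only the 18 first arrays, array weights, a term for title numbers above 100000, and leaving out each array. Promoters are RefSeq's, on GRCm38.p6.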

Additional observations from a re-analysis of the deposited data

How the results depend on the processing

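The number of the 8 genes called was recomputed under each setting. In the T3 response of WT it was 1, and 2 (Lgr5 and Ctsc) with only the arrays compared, with only the first-submitted arrays and with array weights. With probe sets averaged per gene it was 1, but Ctsc in place of Lgr5, whose average takes in its dim probe set. In the T3 response of Y147F it was 4, and 2 (Lgr5 and Hal) with only the arrays compared. It was 3 with no filter on dim genes, with every probe set fitted on its own, with array weights and with a term for title numbers above 100000, all without Rhbg, and 3 with probe sets averaged, without Lgr5. The response difference of GS from WT went from 0 to 1 (Ctsc) with only the arrays compared, and that of KO from WT from 0 to 1 (Cdh1) with the title term. With that term the difference of KO from WT without T3 went from 4 to 2 (Oat and Ctsc), and it was 3 (without Hal) with only the arrays compared, with the first-submitted arrays and with array weights. With array weights GS against WT without T3 went from 2 to 3 (Cdh1 added). The cause of these changes was not tested. Without one array the counts ran from 0 to 1 in the T3 response of WT, from 3 to 4 in that of Y147F, from 2 to 4 in KO against WT without T3 and from 1 to 2 in GS against WT without T3, and were 0 in the other 7 comparisons. No log2 difference that was called changed sign. Of the log2 differences recomputed, 1490 stayed on their side of the threshold, 31 lost a call and 7 gained one, while 140 of the counts over the wider lists moved by more than 1.5 times and 1197 did not. Ctsc in both mutants, Oat in KO and Hal in Y147F with T3 were called under every setting and without any one array. No paired analysis was possible because the labels give no replicate numbers that groups share.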
